A study of Mus musculus with 16 samples.

Results

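The odorant receptors of mouse chromosome 11 were taken as the probe sets with a chromosome 11 identifier whose symbol in the platform annotation was Olfr and a number, pseudogenes left out. This gave 78 receptor genes, each with 1 probe set, of 19572 probe sets tested and of 1080 receptors chosen in that way genome-wide. The data came from 16 arrays (Clariom S, mouse) of cells sorted from the olfactory mucosa of S100a5-tauGFP mice, in which the S100a5 gene drives GFP. S100a5 binds calcium and is made by olfactory sensory neurons, where its mRNA follows activity. There were 24 mice of both sexes, aged 7 to 12 weeks, kept singly for 40 h in chambers with an air flow of 3.1 L/min. From 26 h on they were given 10 s pulses every 20 min, of filtered air as vehicle or of citrus accord, a fragrance blend, at 100 percent. The 4 groups were vehicle GFP-positive (GFP+), vehicle GFP-negative (GFP-), citrus GFP+ and citrus GFP-, with n = 4 arrays each and the pooled cells of 3 mice behind each array. All mice carried the reporter, and the GFP- group is labelled by the absence of GFP and no other marker, so it can hold cells other than neurons.

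An odorant receptor is a G protein-coupled receptor in the cilia of an olfactory sensory neuron, and each mature neuron expresses a single allele of a single receptor gene. Receptor genes lie in clusters, and closely related genes, which share a numbered MOR family, are often neighbours. In a mixed sample the signal of a receptor therefore depends on how many neurons of that kind are present and on how much receptor mRNA each holds. These contributions cannot be told apart in pooled cells.

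The 78 genes fell into 6 clusters when a gap of over 1 Mb between neighbours started a new one. In gene order these ran from Olfr1396 to Olfr1380 with 18 genes, from Olfr1378 to Olfr54 with 4, Olfr1373 and Olfr1371, from Olfr30 to Olfr225 with 24, from Olfr376 to Olfr412 with 29, and Olfr464 alone. A MOR family number was known for 75 of them, from 20 families, and 0 belonged to the families up to 42 of the class I (fish-like) receptors. Values are log2 expression, and differences are in log2 units of GFP+ minus GFP- or of citrus minus vehicle, with the standard error of the fit. A signal was taken as above background where it exceeded the 95th percentile of the negative control probes of its array, which lay between 8.75 and 9.71. Between 17 and 29 of the 78 did so on any 1 array, 11 on all 16 arrays and 39 on none, so many differences below are between signals that cannot be told from background by their level. The deposited scale can be stretched, so a log2 difference need not be the log2 ratio of mRNA amounts.

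The upstream sequences of the MOR135 family are shown first, because 10 of its 17 genes were lower in GFP+ cells together. RefSeq promoter windows on GRCm38.p6 were found for 68 of the 78 genes. In 41 of 55 windows of gene models of up to 1500 bases, ATG, a start codon, stood right at the annotated start. Only windows of gene models of over 1500 bases were therefore used, and of these only windows without ATG at the annotated start. This left 10 windows of 9 genes, among them 5 of MOR135. Each sequence is the 250 bases before the annotated start, 5′ to 3′ on the minus strand, at chr11:73399496-73399745 for Olfr1, chr11:73428478-73428727 for Olfr378, chr11:73780590-73780839 for Olfr389, chr11:73802985-73803234 for Olfr391 and chr11:73816878-73817127 for Olfr392. Capitals mark TAATNA, the core of sites bound by homeodomain factors such as Lhx2, on either strand.
Olfr1: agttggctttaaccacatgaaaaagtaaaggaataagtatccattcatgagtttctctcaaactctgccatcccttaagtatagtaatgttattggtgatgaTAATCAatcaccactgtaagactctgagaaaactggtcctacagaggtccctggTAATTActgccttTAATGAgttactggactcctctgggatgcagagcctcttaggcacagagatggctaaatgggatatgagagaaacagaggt
Olfr378: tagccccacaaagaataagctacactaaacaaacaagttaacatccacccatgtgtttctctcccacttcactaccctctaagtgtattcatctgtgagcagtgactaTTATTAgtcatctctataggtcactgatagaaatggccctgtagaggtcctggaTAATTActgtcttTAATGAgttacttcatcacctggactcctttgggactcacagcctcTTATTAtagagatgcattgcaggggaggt
Olfr389: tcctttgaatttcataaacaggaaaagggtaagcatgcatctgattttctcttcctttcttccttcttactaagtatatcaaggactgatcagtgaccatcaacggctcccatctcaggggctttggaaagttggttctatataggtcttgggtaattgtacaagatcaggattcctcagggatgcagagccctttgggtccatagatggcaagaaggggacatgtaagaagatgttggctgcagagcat
Olfr391: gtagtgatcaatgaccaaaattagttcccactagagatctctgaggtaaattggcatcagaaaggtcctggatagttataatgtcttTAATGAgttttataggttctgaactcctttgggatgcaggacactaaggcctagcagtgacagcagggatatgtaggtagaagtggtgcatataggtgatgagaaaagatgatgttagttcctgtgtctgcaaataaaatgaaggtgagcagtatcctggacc
Olfr392: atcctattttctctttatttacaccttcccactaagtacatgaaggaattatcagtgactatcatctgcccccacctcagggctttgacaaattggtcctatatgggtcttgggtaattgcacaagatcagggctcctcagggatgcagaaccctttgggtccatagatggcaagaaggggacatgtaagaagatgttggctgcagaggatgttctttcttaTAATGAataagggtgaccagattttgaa

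The windows of Olfr389 and Olfr392 shared 73.2% of their bases, those of Olfr1 and Olfr378 67.2% and those of Olfr1 and Olfr389 64.0%. Over the 10 pairs within MOR135 the median identity was 56.2%, against 52.8% over 25 pairs of a MOR135 window with another and 54.4% over 9 pairs of other windows. TAATNA was found 3 times in the window of Olfr1, 4 times in that of Olfr378, and once in those of Olfr391 and Olfr392, while that of Olfr389 held no such letters. CCCNNGGG, the core bound by Olf-1/Ebf factors, was in none of these 5 windows. By their letters, a match to one of these motifs cannot overlap a match to the other.

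Olfr330 and Olfr224, of the MOR275 family in the fourth cluster and both lower in GFP+ cells, are shown for comparison because their windows were 72.8% identical. Between them lie Olfr329, which was higher in GFP+ cells, and Olfr328, which was lower. Capitals mark CCCNNGGG in Olfr330 (chr11:58534826-58535075, minus strand) and TAATNA in Olfr224 (chr11:58570569-58570818, minus strand).
Olfr330: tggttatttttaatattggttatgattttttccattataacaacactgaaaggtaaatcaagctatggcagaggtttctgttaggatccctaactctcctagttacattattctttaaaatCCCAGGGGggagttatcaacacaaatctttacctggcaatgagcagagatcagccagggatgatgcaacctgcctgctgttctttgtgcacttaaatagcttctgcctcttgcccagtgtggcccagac
Olfr224: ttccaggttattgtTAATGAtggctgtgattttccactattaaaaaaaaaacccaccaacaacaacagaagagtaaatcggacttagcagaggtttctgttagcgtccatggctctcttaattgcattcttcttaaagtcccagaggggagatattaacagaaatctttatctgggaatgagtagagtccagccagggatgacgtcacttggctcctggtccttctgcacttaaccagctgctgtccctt

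Of the 10 windows, 7 (70.0%) held TAATNA, against 66.3% of 92 windows of receptors on other chromosomes chosen in the same way and 24.3% of all 32851 windows in the table. Both windows of Olfr59 overlap and hold the same TAATNA match, which is counted in each. CCCNNGGG was in 1 of the 10 (10.0%), against 16.3% and 11.8%. Both motifs were searched on both strands, and a match is given as a description of the letters, not as a site in use.

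The first question was which of these receptors the reporter separates in mice that received filtered air. In vehicle, 21 of the 78 were higher in GFP+ cells, 22 were lower and 35 did not pass the threshold (limma, adjusted p under 0.05 over all probe sets). Over all 19572 probe sets 9.05% were higher and 9.97% lower. Of the 1002 receptors on other chromosomes 399 were higher and 199 lower, and of the 1397 other genes of chromosome 11 95 were higher and 127 lower. The median difference was −0.10 for the 78 receptors, 0.61 for the receptors elsewhere, 0.09 for the other genes of the chromosome and 0.11 over all probe sets. Among the 11 other chromosomes with at least 20 receptors, the share of receptors that were higher ran from 18.5% to 55.6%, and 2 lay below chromosome 11. The share that were lower ran from 11.1% to 34.4%, and 8 lay below it.

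This split of the calls depended on how arrays were put on one scale. Once each array was set to the same overall median, 26 of the 78 were higher and 20 lower, with mature neuron markers as the base 17 and 28, and with receptors of other chromosomes as the base 14 and 28. Over all 19572 probe sets the counts in that order were 7080 and 1555, 551 and 2995, and 376 and 4328. The median of all probe sets, 0.11 in vehicle, became 0.39, −0.17 and −0.42 under these choices. The receptors named next for their largest differences kept their direction and their call in each of them.

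Among the 78 receptors the falls were much larger than the rises. Of the 22 lower receptors 13 fell by over 3 log2 units, while of the 21 higher receptors only Olfr222 rose by that much. Such counts are not given here for all probe sets or receptors elsewhere, so this contrast is not shown to be particular to chromosome 11. The called differences ran from −7.64 to 4.41. At the bottom stood Olfr1384, Olfr393, Olfr390, Olfr411, Olfr392 and Olfr1395, of which Olfr393, Olfr390 and Olfr392 are MOR135 genes in 1 stretch of the fifth cluster.

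Olfr1384, a MOR256 receptor among 17 less affected neighbours in the first cluster, had values of 12.10, 11.77, 12.39 and 12.61 in the vehicle GFP- arrays and of 4.30, 4.79, 4.52 and 4.69 in the vehicle GFP+ arrays. All 4 GFP- arrays were above background and none of the GFP+ arrays was. The difference was −7.64 ± 0.26 (adjusted p = 2.7e-12), and set against the background level of the GFP+ arrays it was at least 2.87 units.

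Olfr393 gave 12.46, 12.67, 13.19 and 13.01 in vehicle GFP- and 5.50, 4.96, 5.14 and 5.20 in vehicle GFP+ arrays. Again every GFP- array and no GFP+ array was above background. The groups stood −7.63 ± 0.24 apart (adjusted p = 9.6e-13), or at least 3.48 units, an at least 11.2-fold step on this scale. Olfr390, of the same family, gave 12.18, 12.19, 12.66 and 12.07 in GFP- and 4.95, 4.18, 4.04 and 5.51 in GFP+ arrays, a difference of −7.61 ± 0.33 (adjusted p = 5.9e-11).

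The pattern of Olfr392 was like theirs with more spread: 12.19, 12.34, 11.86 and 11.92 in GFP- against 6.13, 7.69, 4.64 and 5.67 in GFP+ arrays, a difference of −6.04 ± 0.60. Olfr411, a MOR255 receptor near the end of the same cluster, gave 12.26, 12.36, 13.38 and 12.26 in GFP- and 6.52, 6.40, 7.60 and 5.38 in GFP+ arrays, and differed by −6.09 ± 0.40 (adjusted p = 5.8e-09). In both genes every GFP- array was above background and every GFP+ array below it. Olfr1395, a MOR277 receptor, was less even, with 13.56, 13.12, 13.37 and 13.98 in GFP- but 5.51, 11.34, 7.19 and 8.35 in GFP+ arrays. Of its GFP+ arrays 1 was above background, and the difference was −5.41 ± 0.82 (adjusted p = 0.00011).

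**Figure D1:**
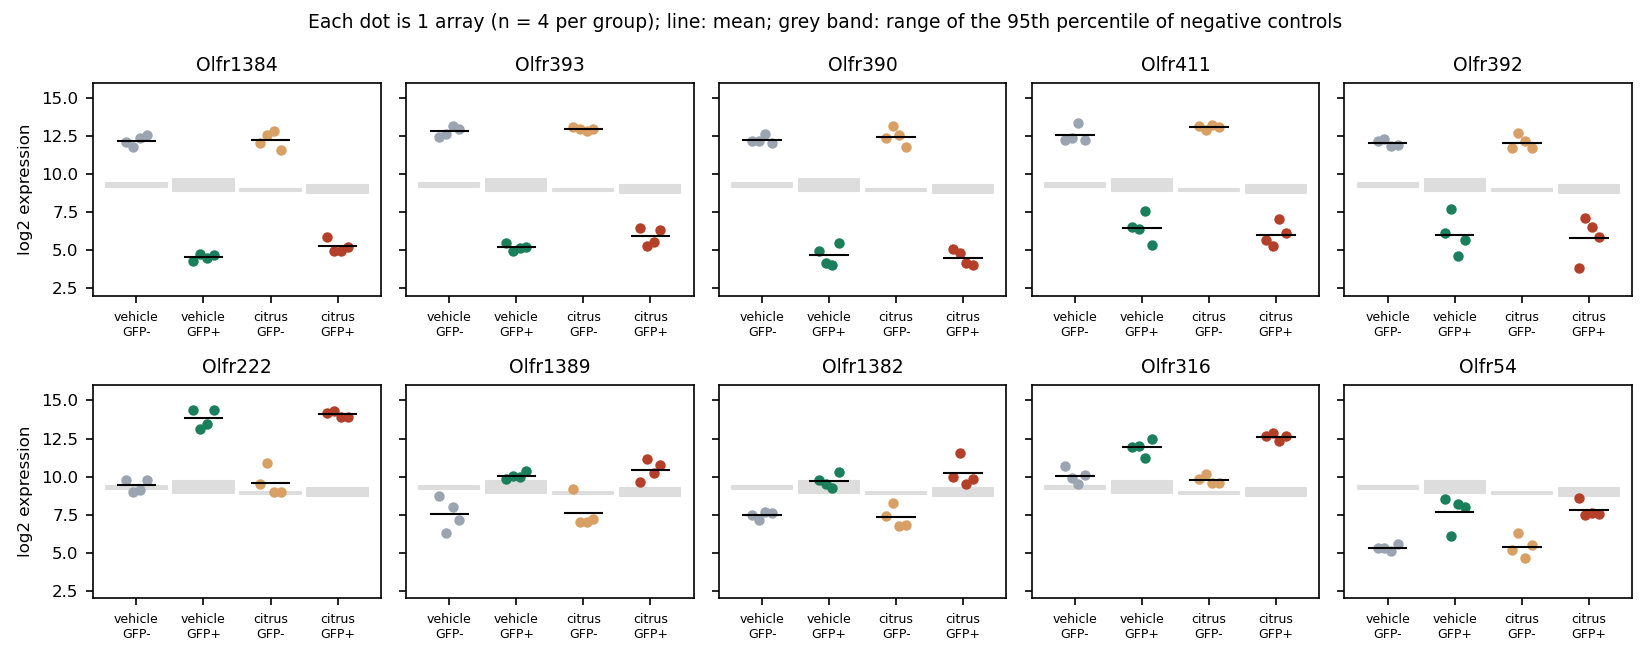
Log2 expression of 10 chromosome 11 receptors on every array (n = 4 per group, line at the mean), with the grey band giving the range of the 95th percentile of negative controls over the arrays. The top row holds receptors that fell below that band in GFP+ cells, such as Olfr1384 (4.30 to 4.79 in vehicle), and the bottom row receptors that were higher in GFP+ cells, of which Olfr54 stayed under the band on every array.

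Among the receptors that were higher in GFP+ cells, Olfr222, a MOR256 gene of the fourth cluster, stood apart. It gave 14.40, 13.12, 13.46 and 14.40 in vehicle GFP+ arrays and 9.78, 9.01, 9.14 and 9.80 in vehicle GFP- arrays, of which 2 were above background. Its groups did not overlap, and the difference was 4.41 ± 0.37 (adjusted p = 1.2e-07).

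Olfr1389 and Olfr1382, both MOR256 receptors of the first cluster, followed with smaller steps. Olfr1389 gave 9.84, 10.02, 9.98 and 10.35 in GFP+ against 8.74, 6.30, 8.0 and 7.18 in GFP- arrays, a difference of 2.49 ± 0.50 (adjusted p = 0.0015). Olfr1382 gave 9.78, 9.52, 9.27 and 10.31 against 7.47, 7.12, 7.69 and 7.61, a difference of 2.25 ± 0.39 (adjusted p = 0.00038). Olfr319, a MOR285 receptor, gave 10.99, 8.67, 8.45 and 10.21 against 8.13, 6.25, 6.48 and 7.78, and differed by 2.42 ± 0.59 (adjusted p = 0.0076). Its lowest GFP+ array was above its highest GFP- array by a narrow margin.

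Olfr51 and Olfr54, of the second cluster, were also higher, but no array of either gene was above background. Olfr51 gave 7.46, 6.69, 6.78 and 7.11 in GFP+ and 4.45, 5.29, 4.13 and 4.20 in GFP- arrays, a difference of 2.49 ± 0.30. Olfr54 gave 8.50, 6.09, 8.18 and 8.01 against 5.32, 5.32, 5.13 and 5.56, a difference of 2.36 ± 0.43. Such genes made up much of the calls: in 11 of the 21 higher and 11 of the 22 lower receptors of the vehicle comparison, no array of the brighter gate was above background. At the threshold itself, Olfr329 lay just inside with 1.69 ± 0.56 (adjusted p = 0.044) and Olfr332 just outside with 0.76 ± 0.26 (adjusted p = 0.051). Olfr329 no longer passed without vehicle pool 1, 2 or 4 or citrus pool 1 or 4 (adjusted p from 0.053 to 0.22), and Olfr332 passed without vehicle pool 1 or 3 or citrus pool 4 (0.032 to 0.045) and with the pool as a block (0.043).

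The same question was then asked in mice that received citrus accord, on arrays that share no sample with the vehicle comparison. Both comparisons use the same estimate of spread per probe set, fitted over all 16 arrays, so their calls are not fully independent. There 27 of the 78 receptors were higher in GFP+ cells, 23 lower and 28 did not pass, where 7.44% of all probe sets were higher and 10.8% lower. Of the receptors elsewhere 433 were higher and 189 lower, and of the other chromosome 11 genes 62 and 149. The median was 0.12 for the 78 receptors, 0.77 for receptors elsewhere and 0.13 over all probe sets. Under the 3 other scalings, in the order given above, the calls were 30 higher and 21 lower, 24 and 28, and 21 and 38. Over all 19572 probe sets they were 9128 and 1711, 523 and 3579, and 385 and 11765.

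Both stimuli sorted the receptors alike. Of the receptors higher in vehicle 20 (95.2%) were also higher in citrus, which is 74.1% of those higher in citrus. Of those lower in vehicle 20 (90.9%) were also lower in citrus, which is 87.0% of those lower there. None was called in opposite directions, and 25 passed in neither. The matching overlaps over all probe sets or receptors elsewhere are not given here, so this agreement is not shown to be particular to chromosome 11. Across the 78 genes the differences correlated at r = 0.98, as they did at 0.97 across the 1002 receptors elsewhere, a description only since genes are not replicates. Within single pools, 24 of the 78 were higher in GFP+ cells in 8 of 8 pools and 21 lower in all 8, where 13.5% and 11.2% of all probe sets did so.

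**Figure D2:**
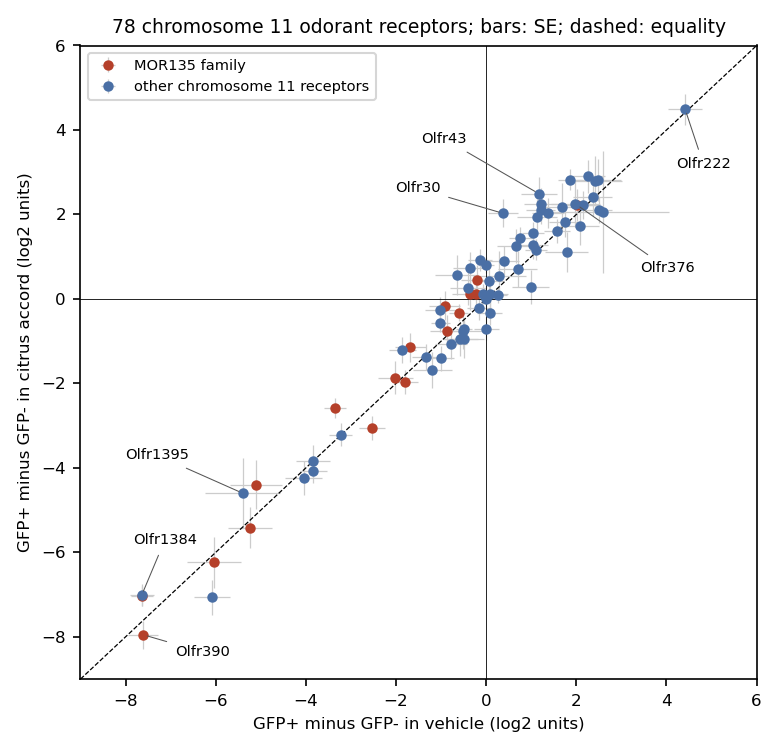
GFP+ minus GFP- difference of each of the 78 receptors in vehicle (horizontal axis) and in citrus accord (vertical axis), in log2 units with SE bars, 4 arrays against 4 in each, and MOR135 genes in red. Points follow the dashed line of equality (r = 0.98), from Olfr390 at −7.61 and −7.95 to Olfr222 at 4.41 and 4.49.

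Of the 6 receptors with the largest falls in vehicle, 5 were also among the 6 in citrus, with Olfr390 at −7.95 ± 0.33, Olfr411 at −7.07 ± 0.40, Olfr393 at −7.04 ± 0.24, Olfr1384 at −7.01 ± 0.26 and Olfr392 at −6.24 ± 0.60. Olfr1, another MOR135 receptor, stood in the place of Olfr1395 (−4.60 ± 0.82 in citrus) and gave 10.74, 10.49, 12.61 and 10.05 in citrus GFP- arrays and 4.57, 6.40, 5.76 and 5.50 in citrus GFP+ arrays. Its groups were far from overlapping, and it differed by −5.42 ± 0.48 (adjusted p = 1.7e-07), close to its −5.24 ± 0.48 in vehicle. Olfr411 gave 13.16, 12.91, 13.24 and 13.13 against 5.71, 5.26, 7.04 and 6.16. The background level of the GFP+ arrays bounds this difference at no less than 4.15 units, or at least 17.7-fold on this scale.

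Olfr222 led the higher receptors again, with 14.18, 14.30, 13.89 and 13.94 in citrus GFP+ arrays and 9.48, 10.89, 8.99 and 9.0 in citrus GFP- arrays (4.49 ± 0.37, adjusted p = 7.2e-08). Olfr1382 followed at 2.90 ± 0.39, Olfr316 at 2.83 ± 0.26, Olfr1389 at 2.82 ± 0.50, Olfr319 at 2.78 ± 0.59 and Olfr43 at 2.49 ± 0.40. The difference of Olfr1389 was made smaller by 1 GFP- array, which read 9.19 beside 7.03, 6.98 and 7.22, and it was 3.62 without citrus pool 1. Olfr464, just inside the threshold, differed by −1.07 ± 0.35 (adjusted p = 0.042), and Olfr1387, just outside, by 0.91 ± 0.34 (adjusted p = 0.074). Olfr464 no longer passed without citrus pool 1, 2 or 4 (adjusted p from 0.073 to 0.27), and Olfr1387 passed without vehicle pool 3 (0.047) and with the pool as a block (0.012).

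Along the chromosome, higher and lower receptors were unevenly spread. The fifth cluster held 13 of the 22 receptors that were lower in vehicle and 13 of the 23 that were lower in citrus, beside 5 higher in each, and its median was −0.88 in vehicle and −0.70 in citrus. The first cluster had 4 higher and 2 lower of 18 in vehicle and 5 and 2 in citrus, but 4 higher and 9 lower in citrus with receptors of other chromosomes as the base. On that base the fifth cluster had 3 higher and 16 lower in vehicle and 4 and 18 in citrus. There 4328 of all 19572 probe sets were lower in vehicle and 11765 in citrus. In the second cluster 3 of 4 were higher in each stimulus, with Olfr1378 lower in vehicle at −1.01 ± 0.22, and in the third both genes were higher in each, Olfr1373 by 1.04 ± 0.25 and 1.57 ± 0.25 and Olfr1371 by 1.04 ± 0.32 and 1.27 ± 0.32, with no array above background. In vehicle neither passed with mature neuron markers (adjusted p = 0.058 and 0.085) or receptors of other chromosomes (0.22 and 0.20) as the base, and Olfr1371 did not pass without vehicle pool 2, 3 or 4 (0.053 to 0.12). In citrus Olfr1371 did not pass with receptors of other chromosomes as the base (0.16). The fourth cluster was mixed, with 7 higher and 6 lower of 24 in vehicle and 12 and 7 in citrus, and with 10 and 4 in vehicle once each array was set to the same overall median. Olfr464, alone in the sixth, passed in citrus and not in vehicle (−0.78 ± 0.35, adjusted p = 0.14), where it passed with mature neuron markers (0.032) or receptors of other chromosomes (0.0078) as the base.

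**Figure D3:**
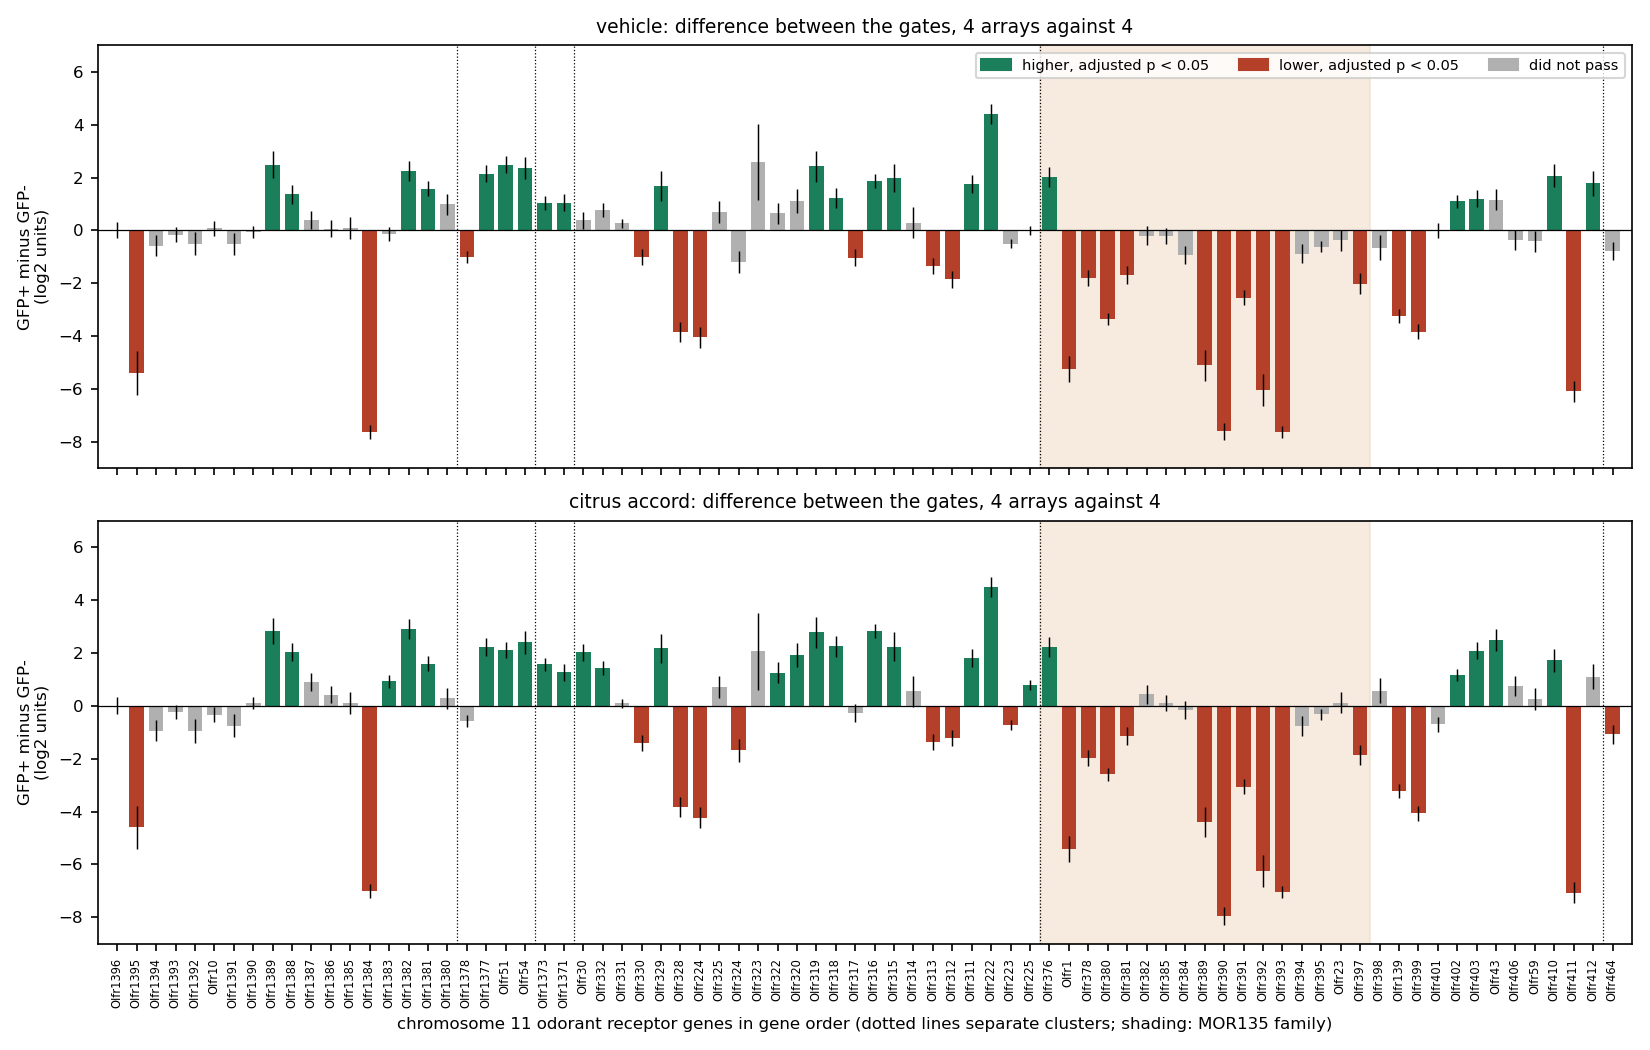
GFP+ minus GFP- difference in log2 units (bars, with SE) of the 78 receptors in gene order, in vehicle (top) and in citrus accord (bottom), 4 arrays against 4, with dotted lines between clusters and shading over MOR135. Lower receptors gather in the shaded stretch, 10 of 17 in each stimulus, while the first cluster holds 2 lower receptors of 18.

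MOR135 gave the fifth cluster most of its lower receptors. All 17 of its genes lie side by side there, from Olfr376 to Olfr397, and none was found on another chromosome. In vehicle and in citrus alike 10 were lower, 1 was higher and 6 did not pass, with medians of −1.80 and −1.86. Between 10 and 14 were lower and 1 higher under the 3 other scalings. The grouping by family was chosen with these values known and is a description.

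The lower ones differed widely in size. Olfr389 gave 10.22, 8.22, 10.59 and 9.97 in vehicle GFP- against 3.25, 4.90, 4.63 and 5.80 in vehicle GFP+ arrays (−5.10 ± 0.59, adjusted p = 4.4e-06), with 3 of the GFP- arrays above background. Olfr380 stood at −3.35 ± 0.24 in vehicle and −2.59 ± 0.24 in citrus, Olfr391 at −2.54 ± 0.29 and −3.06 ± 0.29, and Olfr397 at −2.02 ± 0.39 and −1.86 ± 0.39. Olfr378 stood at −1.80 ± 0.29 and −1.97 ± 0.29, and Olfr381 at −1.68 ± 0.35 and −1.15 ± 0.35. The citrus call of Olfr381 was lost with the pool as a block (adjusted p = 0.069) and without citrus pool 1, 2 or 4 (0.059 to 0.21). These 5 were under the background level on every array. The 5 genes whose upstream windows are printed, Olfr1, Olfr378, Olfr389, Olfr391 and Olfr392, were all lower in GFP+ cells, with vehicle differences from −6.04 to −1.80.

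The exceptions within MOR135 lay among these neighbours. Olfr376, the first gene of the row, was higher in GFP+ cells, with 7.01, 5.69, 6.25 and 4.52 against 4.23, 4.02, 3.42 and 3.78 in vehicle (2.00 ± 0.38, adjusted p = 0.00090) and 2.23 ± 0.38 in citrus, all at background levels. Olfr394, next to Olfr393, was far above background everywhere, with 12.39, 14.27, 12.91 and 13.55 in vehicle GFP+ and 13.77, 14.48, 14.49 and 13.90 in vehicle GFP- arrays. Its groups overlapped, and it did not pass in vehicle (−0.88 ± 0.37, adjusted p = 0.12) or citrus (−0.76 ± 0.37, adjusted p = 0.18). With mature neuron markers as the base it passed as lower in both (0.043 and 0.044). Olfr382, Olfr384, Olfr385, Olfr395 and Olfr23 did not pass either, with differences from −0.92 ± 0.34 for Olfr384 to −0.19 ± 0.37 for Olfr382 in vehicle. Olfr384 and Olfr395 passed as lower in vehicle with mature neuron markers as the base (adjusted p = 0.010 and 0.016), and Olfr384 also without citrus pool 3 (0.012) and Olfr395 without citrus pool 1 or 2 (0.044 and 0.026).

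Other families were mixed as well. MOR255, in the same cluster, had 6 genes of which 3 were lower in both stimuli, Olfr411, Olfr399 (−3.83 ± 0.29 in vehicle) and Olfr139 (−3.23 ± 0.26), and 2 higher, Olfr410 (2.07 ± 0.44) and Olfr402 (1.10 ± 0.24). Olfr410 did not pass in citrus without citrus pool 3 (adjusted p = 0.081), nor did Olfr402 in either stimulus with receptors of other chromosomes as the base (0.12 and 0.22). MOR275, in the fourth cluster, also had 6 genes with 3 lower in both, Olfr224, Olfr328 and Olfr330, and 1 higher, Olfr329, whose citrus call was lost without citrus pool 4 (adjusted p = 0.062). Olfr224 gave 10.27, 10.14, 10.04 and 9.69 in vehicle GFP- and 6.56, 4.78, 6.68 and 5.92 in vehicle GFP+ arrays (−4.05 ± 0.40, adjusted p = 8.4e-07). Olfr330, with the similar upstream window, gave 12.01, 12.04, 11.88 and 11.47 against 11.20, 10.29, 10.82 and 11.07 (−1.0 ± 0.29, adjusted p = 0.020). Both were lower, Olfr224 at background levels in every GFP+ array and Olfr330 above background on every array. The vehicle call of Olfr330 was lost without vehicle pool 2 or 3 (adjusted p = 0.16 and 0.076) and once each array was set to the same overall median (0.051). Of the 3 MOR222 genes, Olfr313 and Olfr312 were lower and Olfr311 higher (1.74 ± 0.34 in vehicle) in both stimuli, though Olfr312 did not pass in citrus without citrus pool 2 (adjusted p = 0.055).

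MOR256, the largest family here with 20 genes, had 6 higher and 2 lower in vehicle and 9 and 2 in citrus, beside 14 and 3 of its 28 genes on other chromosomes in vehicle and 15 and 3 in citrus. Its median, 0.07 in vehicle and 0.61 in citrus, turned negative with receptors of other chromosomes as the base (−0.46 and −0.20) and, in vehicle, with mature neuron markers as the base (−0.21). It held both Olfr1384 and Olfr222, the receptors with the lowest and the highest difference in vehicle. MOR285 was the family of 4 or more genes without a fall: Olfr316, Olfr318 and Olfr319 were higher in vehicle and Olfr320 too in citrus (1.93 ± 0.44), and its median stayed positive under every scaling. Olfr320 also passed in vehicle with the pool as a block (adjusted p = 0.0058) and without vehicle pool 3 (0.046), and Olfr318 did not pass there without vehicle pool 1 or 4 (0.12 and 0.18). Nor did Olfr318 pass in vehicle with mature neuron markers or receptors of other chromosomes as the base (adjusted p = 0.11 and 0.22). Olfr316 gave 11.97, 12.03, 11.24 and 12.44 in vehicle GFP+ and 10.72, 9.91, 9.50 and 10.11 in vehicle GFP- arrays (1.86 ± 0.26, adjusted p = 4.1e-05). Every one of these arrays was above background, and the groups did not overlap. In MOR129, of the second cluster, Olfr51 and Olfr1377 (2.15 ± 0.33 in vehicle) were higher in both stimuli.

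**Figure D4:**
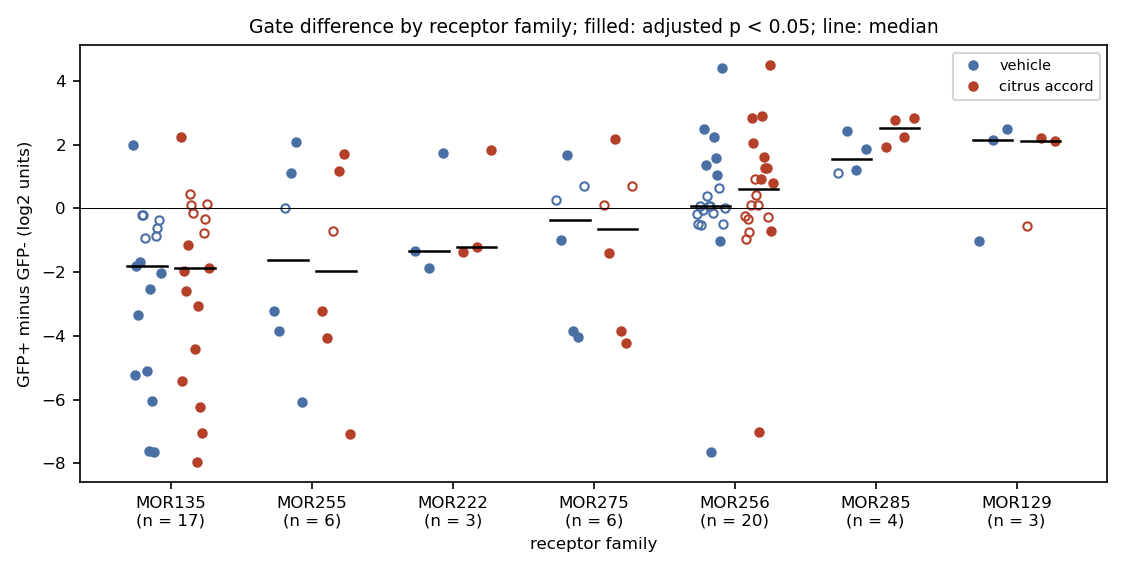
GFP+ minus GFP- difference in log2 units of each receptor in the 7 families with at least 3 chromosome 11 genes, in vehicle (blue) and citrus accord (red), filled where adjusted p is under 0.05, with a line at the family median. MOR135 has medians of −1.80 and −1.86, MOR285 lies above 0 throughout, and MOR256 spans −7.64 to 4.41 in vehicle.

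Some receptors above background on every array did not pass in either stimulus. Olfr1396, at the start of the first cluster, gave 11.22, 11.68, 11.34 and 12.60 in vehicle GFP+ and 12.38, 11.23, 11.30 and 11.90 in vehicle GFP- arrays, and its difference was 0.01 ± 0.31 in each stimulus (95% interval −0.65 to 0.66 in vehicle). Olfr1392, further along, differed by −0.50 ± 0.44 in vehicle and −0.95 ± 0.44 in citrus (adjusted p = 0.48 and 0.16). With receptors of other chromosomes as the base both passed as lower in citrus (0.026 for Olfr1396 and 0.0013 for Olfr1392). So did 11765 of all 19572 probe sets on that base. Olfr323, a MOR107 receptor of the fourth cluster, had the largest standard error of the 78. It read 10.36, 4.75, 4.08 and 8.35 in vehicle GFP+ and 10.44, 3.79, 4.57 and 10.13 in citrus GFP+ arrays, with no GFP- array above background, and its difference of 2.60 ± 1.45 in vehicle did not pass (adjusted p = 0.24). It was named after its values were seen.

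The next question was whether citrus accord changed these receptors within a gate. Both gates were compared separately, and 0 of the 78 passed in either (limma, over all probe sets, where 0.0204% were higher and none lower in GFP+, and 0.0102% higher and 0.00511% lower in GFP- cells). Before adjustment, 11 receptors were higher and 1 lower in citrus at p under 0.05 in GFP+ cells, where 2.06% and 1.99% of all probe sets were. In GFP- cells 2 were higher and 2 lower, where 2.97% and 2.91% were. Of the 1002 receptors elsewhere 51 were higher and 10 lower in GFP+ cells before adjustment. With receptors of other chromosomes as the base, 2 of the 78 were higher and 1 lower in GFP+ cells before adjustment. The median difference of the 78 was 0.25 in GFP+ cells, beside 0.17 for receptors elsewhere and 0.01 over all probe sets, and 0.04 in GFP- cells. With receptors of other chromosomes as the base it was 0.01 in GFP+ cells.

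In GFP+ cells all 4 citrus arrays lay above all 4 vehicle arrays for 4 of the 78 receptors (5.13%, where 1.47% of all probe sets did so), namely Olfr1384, Olfr1383, Olfr1378 and Olfr385. None of these 4 was above background on any GFP+ array. No receptor of the 78 lay below in that way, where 1.26% of all probe sets did. In GFP- cells 0 receptors were separated in either direction (1.26% and 1.57% of all probe sets).

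Olfr1378 had the smallest p in GFP+ cells, with 4.14, 4.51, 4.41 and 4.47 in citrus and 3.10, 4.09, 3.80 and 3.52 in vehicle arrays, none above background, a difference of 0.76 ± 0.22 (95% interval 0.29 to 1.22). Olfr1383 gave 8.40, 8.23, 8.43 and 8.20 against 7.45, 6.92, 8.09 and 7.25 (0.88 ± 0.26), also below background. Olfr30 was the 1 receptor of the 5 with the smallest p whose GFP+ arrays were above background. It gave 12.60, 12.60, 13.05 and 12.29 in citrus GFP+ against 11.28, 11.47, 11.31 and 12.35 in vehicle GFP+ arrays, where 1 vehicle array overlapped, a difference of 1.03 ± 0.33 (95% interval 0.33 to 1.73). Olfr393 (0.73 ± 0.24) and Olfr317 (0.90 ± 0.33) completed the 5, and the adjusted p was 0.999 for each.

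In GFP- cells the smallest p belonged to Olfr223 (0.56 ± 0.18, adjusted p = 0.81), with 4.31, 3.85, 4.62 and 4.14 in citrus and 3.61, 3.57, 3.95 and 3.55 in vehicle arrays. These values sit below background on every array and overlap by 1 vehicle array. Olfr225 (−0.47 ± 0.19), Olfr391 (0.62 ± 0.29) and Olfr1380 (0.77 ± 0.40) were likewise at background. Olfr43 gave 10.23, 10.55, 8.41 and 10.18 in citrus GFP- and 11.24, 10.44, 10.89 and 10.72 in vehicle GFP- arrays (−0.98 ± 0.40, adjusted p = 0.82). Adjusted p lay between 0.81 and 0.86 for these 5.

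In this assay the receptors of neurons that answer an odorant are sought among those whose enrichment in GFP+ cells grows with it, so the change of the gate difference was tested last. None of the 78, and none of all 19572 probe sets, passed (limma, adjusted p under 0.05). Before adjustment 6 of the 78 gained enrichment in citrus at p under 0.05 and 0 lost it, where 1.92% and 1.77% of all probe sets did. The median change of the 78 was 0.21, beside 0.13 for receptors elsewhere and −0.01 over all probe sets. It was −0.08 with receptors of other chromosomes as the base, where 2 of the 78 gained and 1 lost before adjustment. On the main scale 39 of the 1002 receptors elsewhere gained and 9 lost before adjustment. With the pool as a block 11 gained and 2 lost before adjustment, and still none passed. The share of all probe sets under the block is not given here, and the 1.92% and 1.77% above belong to the fit without it.

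Olfr30 had the smallest p. Its difference within the 4 pools was −0.69, 0.38, 0.17 and 1.64 in vehicle and 1.51, 1.35, 3.31 and 1.93 in citrus, a gain of 1.65 ± 0.47 (adjusted p = 0.999). The highest vehicle pool overlapped the citrus pools. Olfr316 gave 1.25, 2.11, 1.75 and 2.33 in vehicle and 2.81, 2.66, 2.78 and 3.05 in citrus, so that all citrus pools stood above all vehicle pools, a gain of 0.97 ± 0.37 (adjusted p = 0.999). Olfr43 gave 0.08, 1.53, 0.95 and 2.10 in vehicle and 1.87, 2.37, 3.34 and 2.39 in citrus, a gain of 1.33 ± 0.57 (adjusted p = 0.999), with 1 vehicle pool inside the citrus range.

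Olfr225 (0.80 ± 0.26) and Olfr1383 (1.06 ± 0.37) were the other receptors with the smallest p, both under background on all arrays. The 95% interval of the gain ran from 0.66 to 2.64 for Olfr30 and from 0.19 to 1.74 for Olfr316. Olfr30 passed between the gates in citrus and not in vehicle, and this is not shown to differ between the stimuli after adjustment. Olfr43 did so too, but it passed in vehicle with the pool as a block (adjusted p = 0.019) and without vehicle pool 1 or citrus pool 2 or 3 (0.0075 to 0.046). Olfr403, which the gene table lists as a synonym of Olfr43 and the other way round, moved similarly (1.21 ± 0.31 in vehicle, 2.10 ± 0.31 in citrus). Its vehicle call was lost without vehicle pool 2 or 4 (adjusted p = 0.070 and 0.094) and with receptors of other chromosomes as the base (0.10). How much signal the probe sets of Olfr403 and Olfr43 share was not tested.

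**Figure D5:**
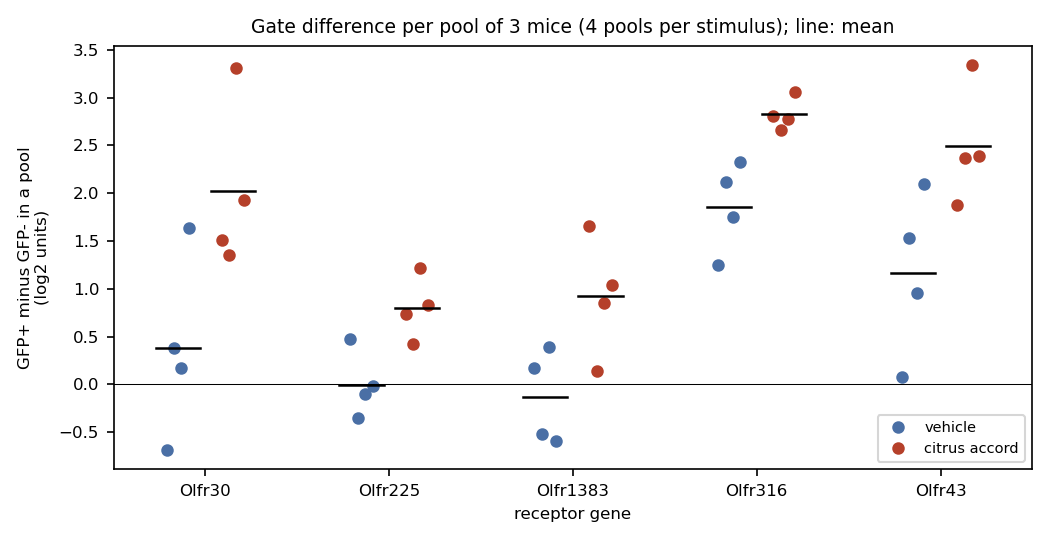
GFP+ minus GFP- difference in log2 units within each pool of 3 mice (4 pools per stimulus, line at the mean) for the 5 receptors with the smallest p for the effect of citrus accord on that difference. All citrus pools of Olfr316 stand above all its vehicle pools (2.66 to 3.05 against 1.25 to 2.33), while 1 vehicle pool of Olfr30, at 1.64, lies within the citrus range of 1.35 to 3.31.

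Genes of the pathway in which receptors act were read in the same way. S100a5 itself was higher in GFP+ cells by 1.91 ± 0.13 in vehicle and 1.88 ± 0.13 in citrus (exact permutation p = 0.0286 for each, two-sided, the smallest that 4 arrays against 4 allow). Omp, the marker of mature olfactory neurons, differed by 0.27 ± 0.14 and 0.18 ± 0.14 (exact permutation p = 0.0286 and 0.114). Of 16 olfactory transduction genes 3 were higher and 1 lower in vehicle, and 5 and 1 in citrus. Pde1c, a calcium-dependent phosphodiesterase that breaks down cAMP, was higher by 0.95 ± 0.16 in each, Ano2, the calcium-gated chloride channel, by 0.64 ± 0.13 and 0.72 ± 0.13, and Grk3, a receptor kinase, was lower by −1.20 ± 0.23 and −0.88 ± 0.23. Of 8 receptor trafficking genes 1 was higher in each stimulus, the chaperone Rtp2 (0.75 ± 0.17 and 0.55 ± 0.17), with 1 lower in vehicle and 2 in citrus. The largest fall was that of Rgs2, a regulator of G protein signalling, at −5.01 ± 0.46 and −5.31 ± 0.46. Of 16 genes of receptor choice 0 were higher, and 2 in vehicle and 3 in citrus were lower, among them Lbr, the lamin B receptor (−1.63 ± 0.29 and −1.90 ± 0.29), and Rcor1, a corepressor (−0.78 ± 0.22 and −0.79 ± 0.22).

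Of 15 activity-linked genes of these neurons 10 were higher and 1 lower in GFP+ cells in each stimulus, with Pcp4l1 (2.37 ± 0.25 and 2.50 ± 0.25) and Kcnmb3, a potassium channel subunit (1.89 ± 0.33 and 1.92 ± 0.33), among the higher. Citrus accord raised 3 of them within GFP+ cells, namely Pcdh10, a protocadherin, by 4.22 ± 0.38, Camk2n1, an inhibitor of CaM kinase II, by 2.74 ± 0.28 and Sema7a, a semaphorin, by 1.46 ± 0.14. It raised 2 of them in GFP- cells, Pcdh10 by 3.57 ± 0.38 and Sema7a by 1.29 ± 0.14. These lists were drawn up with earlier results known, so the counts are descriptions. Under the 3 other scalings the transduction list had between 0 and 14 higher genes and the trafficking list between 0 and 4, while the activity-linked list kept 6 or more.

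Markers of other cells moved with the gates as well. All 13 markers of myeloid and lymphoid cells were lower in GFP+ cells in both stimuli, and the mean of the list ran from 12.37 to 13.31 in vehicle GFP- and from 5.45 to 6.46 in vehicle GFP+ arrays. Lcn2 and S100a8, neutrophil genes, differed by −10.30 ± 0.54 and −9.45 ± 0.50 in vehicle, and 10 of the 13 were under background on all vehicle GFP+ arrays. Of 10 microvillous cell markers 9 were lower in vehicle and 10 in citrus, of 6 markers of globose basal and cycling cells 6 in each, and of 12 immature neuron markers 7 in each. Examples in vehicle were Trpm5, a channel of microvillous cells (−4.37 ± 0.36), Mki67, a cell cycle gene (−5.35 ± 0.47), and Gap43 (−2.55 ± 0.29) and Gng8 (−4.04 ± 0.18), genes of immature neurons. The immature list had a mean from 11.38 to 11.62 in vehicle GFP- and from 9.61 to 9.80 in vehicle GFP+ arrays, and 5 of its 12 genes were under background on all vehicle GFP+ arrays, beside 1 in GFP-. Of 14 mature neuron markers 3 were higher in vehicle, 5 in citrus and 0 lower, with list means from 15.89 to 16.11 in vehicle GFP- and from 16.13 to 16.35 in vehicle GFP+ arrays, but with receptors of other chromosomes as the base 1 was lower in vehicle, 6 in citrus and none higher. Sustentacular, Bowman gland, horizontal basal, vomeronasal and glial lists had 0 higher and between 0 and 3 lower genes in each stimulus. Of 10 sustentacular markers 2 were lower in citrus, which became 7 with the pool as a block, 6 without vehicle pool 1 and 8 with receptors of other chromosomes as the base. All 8 horizontal basal markers, each under background on every array, were lower in citrus on that base. There 11765 of all 19572 probe sets were lower in citrus. The markers that were lower moved with the receptors that were lower in GFP+ cells, and their part in those differences was not tested.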

How the data were processed

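Gene-level log2 expression of 16 arrays was used as the authors deposited it, in the form that SST-RMA gives per a title in the labels. Per the submitters' processing notes the tool was Affymetrix Expression Console. Neither a software version nor a build is stated: each is not given in the sources used here. SST-RMA can stretch the scale, so log2 differences need not equal log2 ratios of mRNA. Of 28846 probe sets, 6640 controls and 2634 without a symbol were left out, and 19572 were tested, each with 1 symbol in the platform annotation. All 78 receptors matched the gene table.

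Group means were fitted over all arrays with limma 3.58.1 (R 4.3.3), without a block, with Benjamini-Hochberg adjustment over all 19572 probe sets for each of 5 comparisons and a threshold of 0.05. The code was tested on simulated data. The number of arrays limits the precision, with n = 4 per group. Since 24 mice gave 8 pools of 3, same-numbered GFP+ and GFP- arrays were taken as 1 pool, which the labels do not state outright. Their deviations from the group means correlated at 0.075 to 0.275, so same-numbered arrays deviated together only weakly. At-least differences set the dim group at the background level of its arrays.

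The alternatives were 3 ways of centring arrays, array weights, a trended and robust prior, a filter on dim probe sets, all non-control probe sets, only the groups compared, the pool as a block and leaving out each pool. Named receptors were, per gate comparison, the 6 largest called differences each way and those nearest the threshold. For citrus accord they were the 5 with the smallest p, and in each cluster the 2 with the highest mean. Protein identity was not analysed here. The receptors, gene lists and rules were chosen with earlier results of these data known. Promoter sequences are from RefSeq (GRCm38.p6). Tables and figures were made with Python 3.11.15, pandas 2.3.3 and matplotlib 3.10.9.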

Additional observations from a re-analysis of the deposited data

Results flagged for a closer look

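A single array stood apart from the other 3 of its group, by its gap over the group's range, in 8 of 144 groups checked (5.56%), where chance gives about 1 in 20. Olfr1 read 6.62 in vehicle GFP+ replicate 3, with the others from 5.14 to 5.34. Olfr411 read 13.38 in vehicle GFP- replicate 3, with the others from 12.26 to 12.36. Olfr223 read 3.95 in vehicle GFP- replicate 3, with the others from 3.55 to 3.61. Olfr329 read 10.81 in vehicle GFP- replicate 1, with the others from 10.01 to 10.14. In citrus GFP- arrays, Olfr1378 read 5.55 in replicate 4, with the others from 4.74 to 4.75, and Olfr1389 read 9.19 in replicate 1, with the others from 6.98 to 7.22. In citrus GFP+ arrays, Olfr54 read 8.61 in replicate 1, with the others from 7.47 to 7.61, and Olfr318 read 12.48 in replicate 3, below the others at 13.54 to 13.69.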

How the results depend on the processing

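Scaling moved the balance of the 78 receptors most. With receptors of other chromosomes as the base, the median difference was −0.63 in vehicle and −0.69 in citrus. Over all probe sets it was −0.42 and −0.68. On that base 38 of the 78 were lower in citrus, as were 11765 of all 19572 probe sets. The median citrus effect on the gate difference was −0.076, beside −0.29 over all probe sets. In citrus the median of the 78 was 0.45 when every array was set to the same overall median and −0.24 with mature neuron markers as the base. Leaving out dim probe sets kept 33 receptors, of which 12 were higher and 11 lower in vehicle and 14 and 13 in citrus, with a citrus median of 0.42. With the pool as a replicate block 24 were higher and 24 lower in vehicle, 28 and 23 in citrus, and 0 passed for the citrus effect. The block added Olfr43 (adjusted p = 0.019), Olfr320 (0.0058), Olfr332 (0.043), Olfr223 (0.033) and Olfr324 (0.013) to the vehicle calls and Olfr1387 (0.012) and Olfr401 (0.048) to the citrus calls, took Olfr381 (0.069) from the citrus calls, and changed no other gate call of the 78. Leaving out 1 pool at a time gave 15 to 23 higher and 20 to 24 lower in vehicle and 23 to 27 and 19 to 25 in citrus, with medians from −0.14 to 0.09 and from 0.05 to 0.28. Of the single-receptor values under an alternative, 688 kept their direction and side of the threshold, 14 fell short of it and 12 newly passed it. These values cover each named receptor in the comparison it was named for, and the changes concerned Olfr329, Olfr332, Olfr464 and Olfr1387. Other receptors also gained or lost calls, and only part of these changes is given beside their values. With receptors of other chromosomes as the base, 7 of the 78 lost and 6 gained a vehicle call. On that base 6 lost and 15 gained a citrus call. Calls lost in some settings and not described above include those of Olfr1388, Olfr315 and Olfr317 in vehicle and of Olfr322 and Olfr1383 in citrus. The cause was not tested. None of the single-receptor values counted above reversed, though Olfr225, called higher in citrus, fell below 0 with receptors of other chromosomes as the base. Signal over background limits 39 of the 78 receptors, which passed the background level on no array.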
